A study of Caenorhabditis elegans with 2 samples.

Results

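The regions described here are LIN-11 ChIP-seq regions at the genes of small nuclear RNAs (snRNAs) and small nucleolar RNAs (snoRNAs) of Caenorhabditis elegans. A region of the authors' pooled list was taken when its summit, the base of highest signal, lay within 500 bp of an annotated snRNA or snoRNA gene and over 200 bp from any tRNA gene. Of 30000 pooled regions, 313 met this rule, and their summits were nearest to 255 of the 475 annotated RNA genes (129 snRNA and 346 snoRNA genes). A further 2 regions within reach of an RNA gene were left out for a nearby tRNA gene. The authors' optimal list, the regions kept by their comparison of replicates, held 92 of the 313.

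The factor, LIN-11, belongs to the LIM homeodomain family and is known from the development of the vulva and of neurons. Chromatin was immunoprecipitated from whole L2 larvae of both sexes in 2 biological replicates of strain OP62, genotype unc-119(ed3) III; wgIs62. The label of replicate 1 gives LIN-11 with a GFP-FLAG tag at its C-terminus, and the description of both replicates names eGFP-lin-11 as the target. The transgene adds tagged LIN-11 to a strain whose labels name no lin-11 mutation, and the larvae were not separated by tissue, so no cell type can be assigned to any region. The replicates also differed in stock source, a laboratory for replicate 1 and the CGC (the Caenorhabditis stock centre) for replicate 2. No other condition was sampled, so what follows are counts and levels within 1 group, with 95% intervals that cover the counting of regions only.

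Small nuclear RNAs form the core of the spliceosome, and in nematodes the spliced leader RNAs, encoded by the sls genes, are joined to the front of many messenger RNAs by trans-splicing. Their genes have compact promoters in which SNAPc, the snRNA activating protein complex, binds a proximal sequence element just before the start. Small nucleolar RNAs guide the methylation and pseudouridylation of ribosomal and other RNAs. Many lie inside introns of protein-coding genes, where they can be released from the host transcript, and others, including some intronic ones in C. elegans, have promoters of their own. RNA polymerase III genes such as tRNA genes carry internal promoter elements named the A box and the B box.

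The sequences before the RNA starts are shown first, because most summits of the optimal list (60 of 92) lay there. Each is the 100 bp before the annotated start on the strand of the RNA, read from RefSeq's WBcel235 genome (the ce11 build), and each belongs to an RNA gene with a region in the optimal list. The first set shows snRNA genes of high signal and a pair of snoRNA genes picked because they hold a hexamer marked here. The set is therefore not a fair sample of the optimal regions. The snoRNA genes W06H8.17, M7.15, F54E7.10, B0334.12 and C02F5.15, of higher signal than this pair, had no marked letters and are not printed. Y53F4B.47, also of higher signal, had marked letters and is not printed either. Capitals mark TGTCGG and GTACAC, which with ACGCGC were the 3 hexamers found before the most independent snRNA genes, and GGAACCC, which was searched for after these sequences had been read.
sls-2.1, II:5844765-5844864, plus strand: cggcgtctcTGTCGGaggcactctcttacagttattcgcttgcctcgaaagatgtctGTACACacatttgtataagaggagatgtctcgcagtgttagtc
sls-2.2, II:5543498-5543597, plus strand: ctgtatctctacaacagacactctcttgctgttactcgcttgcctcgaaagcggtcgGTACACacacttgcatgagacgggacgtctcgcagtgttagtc
T11F9.15, V:11980018-11980117, plus strand: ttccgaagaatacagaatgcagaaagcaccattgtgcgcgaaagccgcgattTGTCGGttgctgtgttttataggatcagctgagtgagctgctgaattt
sup-6, II:12944968-12945067, minus strand: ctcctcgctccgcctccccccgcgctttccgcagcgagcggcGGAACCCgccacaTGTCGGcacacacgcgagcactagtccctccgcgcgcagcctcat
R07E5.16, III:10989579-10989678, plus strand: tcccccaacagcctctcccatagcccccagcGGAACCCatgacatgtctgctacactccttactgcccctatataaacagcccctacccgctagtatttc
smy-2, IV:9511467-9511566, minus strand: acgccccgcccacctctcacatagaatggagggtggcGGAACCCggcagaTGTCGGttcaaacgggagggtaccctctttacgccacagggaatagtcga
T26A8.6, IV:8428740-8428839, minus strand: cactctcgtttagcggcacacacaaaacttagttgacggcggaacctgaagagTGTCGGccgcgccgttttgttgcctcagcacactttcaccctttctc

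The second set shows snoRNA genes whose upstream sequence holds letters of the polymerase III boxes. Capitals mark TGGC and AGTGG with any 2 bases between, a form of the A box searched for after the sequences had been read, and GGTTCGA, the start of the B box. Of these genes only T06C12.16 lies outside every protein-coding intron; the other 4 lie in introns of cutl-18, pdl-1, Y43F8C.7 and T24H7.2.
T03F7.8, V:11314158-11314257, plus strand: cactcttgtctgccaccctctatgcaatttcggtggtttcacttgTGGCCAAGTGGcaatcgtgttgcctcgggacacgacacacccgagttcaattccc
C27H5.9, II:7184079-7184178, minus strand: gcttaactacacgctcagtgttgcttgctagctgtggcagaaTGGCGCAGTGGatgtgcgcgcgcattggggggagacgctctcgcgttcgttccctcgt
T06C12.16, V:15873927-15874026, minus strand: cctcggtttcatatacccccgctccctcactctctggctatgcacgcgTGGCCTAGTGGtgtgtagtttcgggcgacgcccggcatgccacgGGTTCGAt
Y43F8C.22, V:19643188-19643287, minus strand: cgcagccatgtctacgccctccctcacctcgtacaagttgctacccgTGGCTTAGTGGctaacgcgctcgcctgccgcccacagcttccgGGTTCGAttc
T24H7.6, II:6248617-6248716, plus strand: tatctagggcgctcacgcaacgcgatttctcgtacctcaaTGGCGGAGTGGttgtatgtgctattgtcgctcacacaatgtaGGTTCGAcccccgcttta

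Regions at snRNA and snoRNA genes were in the optimal list more often than pooled regions in general. The share was 29.4% (92 of 313, Wilson 95% interval 24.6 to 34.7%) against 6.39% of all 30000 pooled regions and 6.15% of the rest. The difference from the rest was 23.25 percentage points (Newcombe interval 18.46 to 28.52). Because the optimal list was the top of the pooled list by signal (lowest value 27.84, highest value outside it 27.82), this is a statement about pooled signal. Membership alone does not show that the replicates agreed at a region. Of the 92 optimal regions, 5 had no summit within 100 bp in replicate 1 and 2 had none in replicate 2. The signal value is the authors' peak caller score for a region, on a scale not given in the sources used here. Its median was 12.73 over the 313 regions (interval 10.76 to 14.38) and 8.51 over all pooled regions. Each of the 92 optimal regions had an RNA gene of its own, whereas 55 RNA genes had 2 or more pooled regions.

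The larger share at RNA genes was not limited to the promoters of protein-coding genes. A promoter window was set from 1000 bp before to 200 bp after each protein-coding transcript start, and 31.9% of all pooled regions and 42.5% of the 313 had their summit in one. Inside these windows, 42 of 133 regions at RNA genes were optimal (31.6%) against 12.7% of the rest, a difference of 18.8 points (11.5 to 27.2). Outside every window, 50 of 180 were optimal (27.8%) against 3.08% of the rest, a difference of 24.7 points (18.7 to 31.7). Intronic sequence could be compared separately. Among summits outside every window and inside a protein-coding intron, 24 of 74 at intronic RNA genes were optimal (32.4%) against 228 of 6849 others (3.33%), a difference of 29.1 points (19.5 to 40.4).

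**Figure D1:**
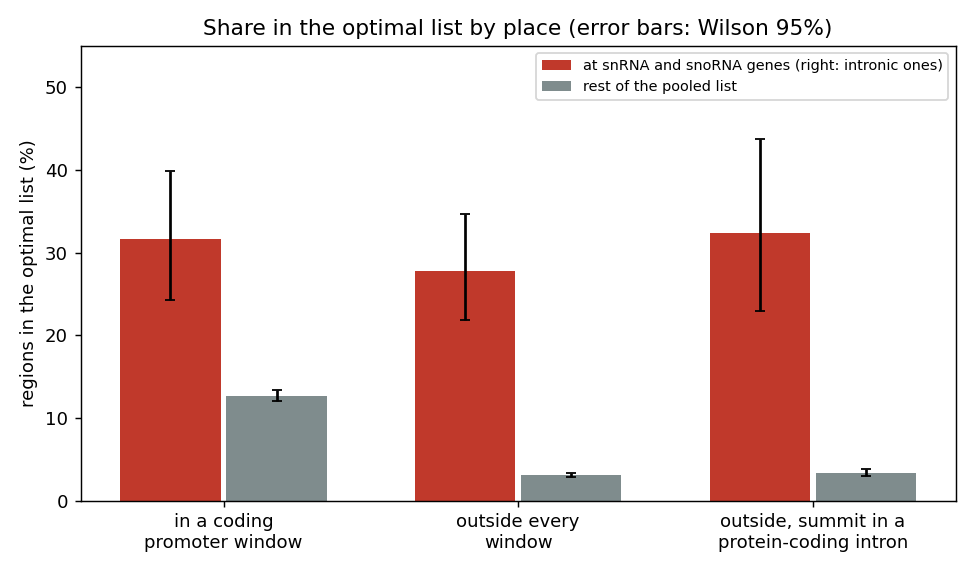
Percent of regions in the optimal list for regions at snRNA and snoRNA genes (red) and for the rest of the pooled list (grey), in protein-coding promoter windows, outside them, and outside them with the summit in a protein-coding intron (red bar there: regions at intronic RNA genes). Error bars are Wilson 95% intervals; the red bars stand at 31.6%, 27.8% and 32.4% and the grey bars at 12.7%, 3.08% and 3.33%.

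An RNA gene was called intronic when it lay whole inside an intron of a protein-coding transcript, and independent otherwise. Optimal regions made up 32.9% of 152 regions at independent RNA genes (25.9 to 40.7%) and 26.1% of 161 at intronic ones (19.9 to 33.4%). The difference of 6.81 points had an interval from -3.27 to 16.8, which includes 0 and also a lead of independent genes of well over 10 points. Leaving out replicate 1 changed this: by the strong regions of replicate 2 alone the difference was 11.8 points (1.04 to 22.2), which excludes 0, and by those of replicate 1 alone it was 9.05 points (-0.97 to 18.9). By class, the optimal share was 35% at independent snoRNA genes (43 of 123), 27.9% at intronic snoRNA genes (39 of 140), 24.1% at independent snRNA genes (7 of 29) and 14.3% at intronic snRNA genes (3 of 21). The shares of snRNA genes (20.0% of 50) and snoRNA genes (31.2% of 263) differed by -11.2 points, again with an interval that includes 0 (-21.7 to 2.89). Where the host intron was on the same strand as the RNA the share was 25.2% (33 of 131), and on the opposite strand 30.0% (9 of 30).

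**Figure D2:**
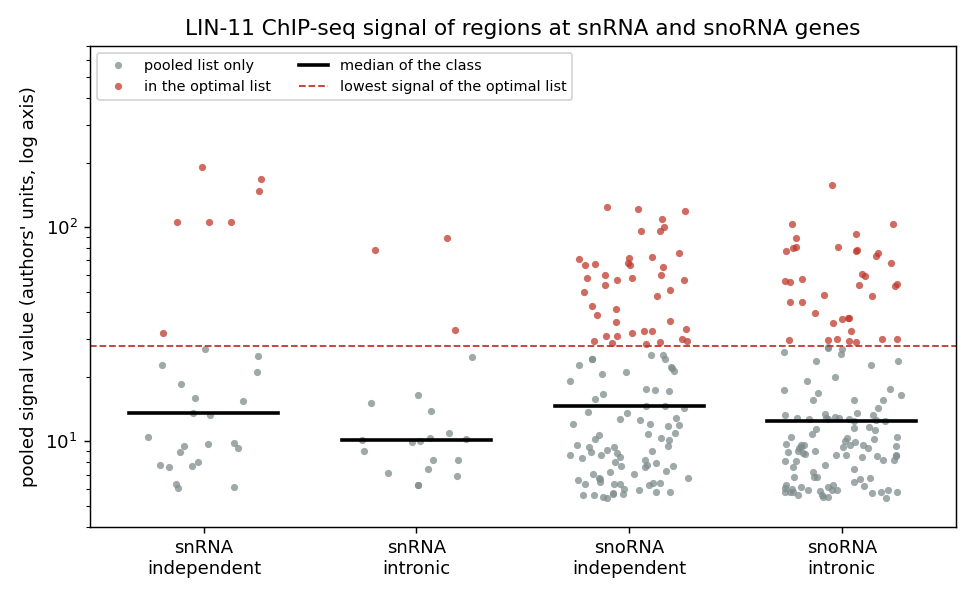
Pooled signal value (log axis, authors' units) of each of the 313 regions by class, with regions of the optimal list in red, other regions in grey, the class median as a black bar and the lowest signal of the optimal list (27.84) as a dashed line. The class medians lie between 10.18 and 14.57, and the highest value (190.4) belongs to an independent snRNA gene.

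Genes of SL2-type spliced leader RNAs, the leaders given to downstream genes of operons, had 3 of the 4 strongest regions. The region at sls-2.4 had a pooled signal of 190.4 and ranked 15 of the 30000, with ranks of 29 in replicate 1 and 13 in replicate 2. The region at sls-2.1 (signal 167.8) ranked 27, with ranks of 86 and 20 in the replicates. The region at sls-2.2 (signal 147) ranked 47, with ranks of 120 and 36. All 3 were thus near the top of both replicate lists; the only other region among the strongest 4, at the intronic snoRNA gene F54E7.10, is described with its class. The region at sls-2.8 had a signal of 105.7 and ranked 142, and the region at sls-2.7 had a signal of 31.95 and ranked 1609.

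Other sls genes had less or nothing. The region at sls-2.3, which lies near sls-2.2 on chromosome II in the opposite direction, had a pooled signal of 26.94, the highest outside the optimal list among independent snRNA genes. It ranked 1388 in replicate 2 and had no summit within 100 bp in replicate 1. Of 18 annotated sls-2 genes, 9 had a region meeting the rule and 5 an optimal one. The region at sls-2.9 was optimal by a narrow margin (signal 27.86, rank 1914) but was left out because its summit lay 56 bp from a tRNA gene. None of the 12 sls-1 genes, which encode the SL1-type leader, had a region, and all 12 have identical copies. Of the 36-base words in the 100 bp before each sls-1 gene, between 0% and 46.2% occurred once in the genome, so a read of that length would mostly have more than 1 place.

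The other snRNA genes of high signal were a few members of larger families. T11F9.15 (gene WBGene00014291, on chromosome V) had a signal of 105.8 at rank 141, with ranks of 132 and 211 in replicates 1 and 2. F38E11.11 (WBGene00014366, IV) had a signal of 105.4 at rank 143, with replicate ranks of 187 and 209. The intronic gene sup-6, identified genetically as a suppressor of a splicing mutation, lies inside F58G1.7 and had a signal of 88.97, with ranks of 416 and 201. These 3 regions were among the strongest in both replicates. R07E5.16 (WBGene00014543), inside dhc-4 on chromosome III, had a signal of 78.51 and rank 87 in replicate 2 but no matching summit in replicate 1. F32B5.9, inside cpz-1, had the lowest signal of the intronic optimal snRNA regions, 33.12, with ranks of 1617 and 1857.

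Where an snRNA family of several genes had an optimal region, it mostly stood at a minority of the copies. Grouping snRNA genes at 85% sequence identity put 22 genes in the family of R07E5.16, of which 1 had an optimal region. The counts were 1 of 13 in the sup-6 family, 2 of 12 in the F38E11.11 family, 1 of 8 in the sls-2.7 family and 1 of 5 in the T11F9.15 family. The family of sls-2.1 to sls-2.4 was the exception, with 3 of 4. The gene sls-2.8, with an optimal region, was grouped with no other gene. A family of 19 genes that includes Y54G9A.8 had no optimal region, and its highest signal was 7.996. Identical copies were found for 44 of the 129 snRNA genes, and for no snoRNA gene. Before the 90 snRNA genes with no region, a median of 80.8% of 36-base words were unique, and before 30 of them fewer than 50% were; before the 39 with a region the median was 100%. The part of repeated sequence in these gaps was not tested. Over all RNA genes, 20.0% (95 of 475) had an optimal region within reach, 8.53% of snRNA genes and 24.3% of snoRNA genes.

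At independent snoRNA genes the 6 strongest regions had signals from 96.25 to 123.7. W06H8.17 led with 123.7 at rank 88, with ranks of 153 and 71 in replicates 1 and 2. F39B2.14 followed with 121.4 (replicate ranks 37 and 141) and C26C6.13 with 118.8 (55 and 160). M7.15 had 109 (261 and 112), Y53F4B.47 had 100.5 (421 and 111) and F37F2.4 had 96.25 (114 and 303). All 6 ranked high in both replicates, but most of their summits lay over 100 bp before the RNA start. The summit was 169 bp before the RNA at W06H8.17, 144 bp at M7.15 and 257 bp at F37F2.4. F39B2.14 had its summit 92 bp before the RNA but 31 bp before the start of tmem-107, and C26C6.13 had it 349 bp before the RNA with the nearest protein-coding start 3347 bp away. The summit of Y53F4B.47 lay 78 bp before the RNA and 143 bp before cmtr-1. The highest region outside the optimal list in this class, at C16D9.10, had a signal of 25.37 and ranks of 10325 and 1805.

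At intronic snoRNA genes several of the strongest regions were nearer to a protein-coding start than to the RNA. F54E7.10, inside the ribosomal protein gene rps-12, led with a signal of 156.6 at rank 34 (replicate ranks 85 and 38), but its summit lay 246 bp before the RNA and 127 bp before ska-3. C02F5.15, inside rfs-1, had 102.8 (78 and 321) with the summit 155 bp before the RNA and 122 bp before fbxl-1. B0041.9 and D1007.20, inside the ribosomal protein genes rpl-4 and rpl-24.1, had 93.16 and 81.05 with summits 481 and 375 bp before the RNA. At these genes the RNA and the coding promoter cannot be told apart as the place of the signal. B0334.12, inside the potassium channel gene twk-5, differed: its summit lay 103 bp past the RNA start and 514 bp inside the gene from the coding start, with a signal of 103.3 and replicate ranks of 309 and 134. F55A11.10 had 88.47 with the summit 62 bp before the RNA and 62 bp past a start of its host F55A11.6. The highest region outside the optimal list was that at Y71G10AR.5, with 27.45.

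Over all 92 optimal regions, however, the summits gathered just before the RNA start. They lay before the start at 75 of 92 (81.5%, 72.4 to 88.1%) and within 100 bp before it at 60 of 92 (65.2%, 55.1 to 74.2%), with a median of 49 bp before the start (interval 39 to 57). Of the 221 other regions, 98 lay before the start (44.3%) and 39 within 100 bp before it (17.6%), with the median 19 bp past the start. Position was not used to form the optimal list, and the rule is symmetric about the RNA gene. However, 24 of the 221 others (10.9%) stood at an RNA gene that also had an optimal region. Such regions are further summits beside an optimal one, and the placement of the others was not counted without them. The optimal share was 60.8% of 51 regions with the summit 1 to 50 bp before the start and 60.4% of 48 at 51 to 100 bp before. It was 20.8% of 24 at over 100 and up to 200 bp before, 20.0% of 50 farther before, 21.2% of 52 inside the RNA gene, and 6.82% of 88 past its end, close to the 6.39% of all pooled regions.

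**Figure D3:**
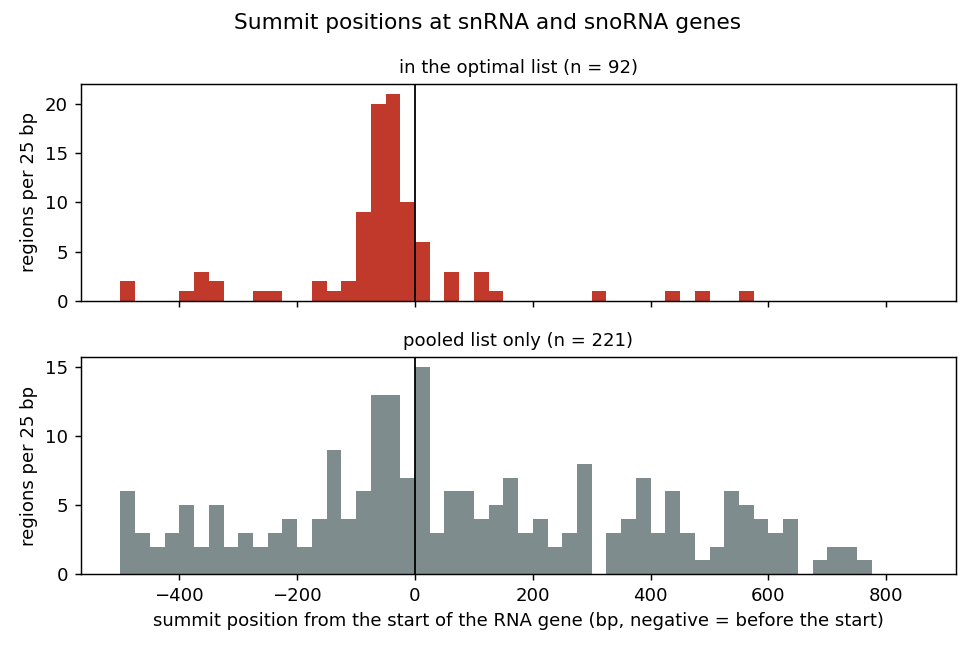
Number of regions per 25 bp by position of the summit from the start of the RNA gene (negative before the start), for the 92 optimal regions (top) and the 221 others (bottom). The optimal summits form a peak within 100 bp before the start (60 of 92), while the others are spread over the whole reach.

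At both intronic and independent RNA genes the optimal summits lay mostly before the start. The median optimal summit was 50 bp before the start at 50 independent genes (interval 35 to 65) and 48 bp before it at 42 intronic genes (31 to 61). Within 100 bp before the start lay 74% of the independent summits (37 of 50) and 54.8% of the intronic ones (23 of 42), a difference of 19.24 points with an interval from -0.2581 to 37.18. Of the few intronic snRNA regions, 1 of 3 optimal summits lay before the start. In the intronic group 33 of 42 optimal summits lay in the same intron as the RNA, against 69 of 119 others. Nearer to the RNA start than to any protein-coding start were 31 of 42 (73.8%), against 94 of 119 others (79%). At independent genes 49 of 50 optimal summits were nearer to the RNA start, against 82 of 102 others. Outside every protein-coding promoter window, 34 of 50 optimal summits lay within 100 bp before the RNA start (68.0%, 54.2 to 79.2%) against 22 of 130 others (16.9%). The median was 36 bp before the start there and 71 bp before it inside the windows. Base composition moved with the same split: the bases within 50 bp of the summit had a median GC content of 53.5% at optimal regions and 44.6% at other regions of RNA genes, with 50.5% over the whole optimal list and 44.6% over the pooled list. Its part in the result was not tested.

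**Figure D4:**
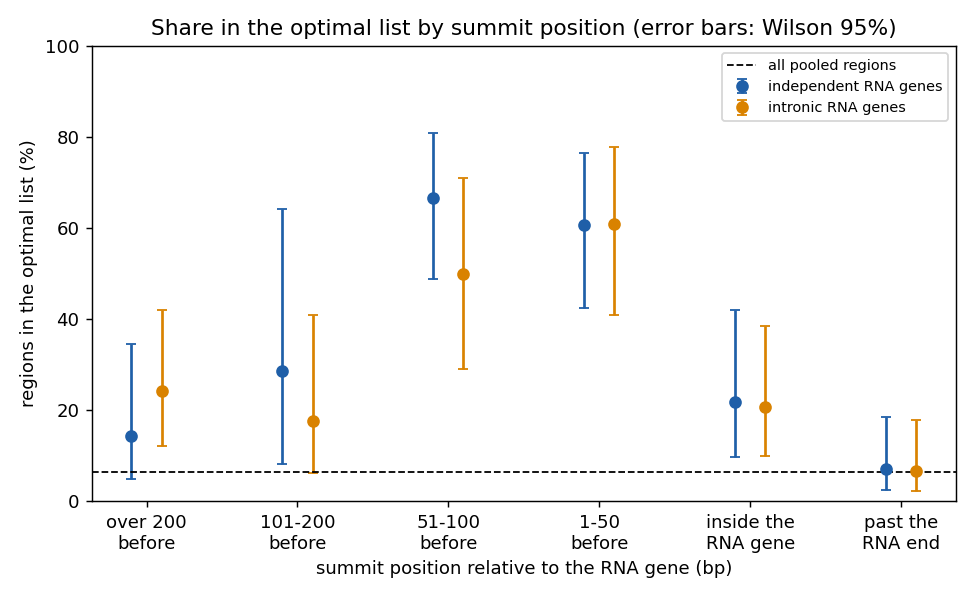
Percent of regions in the optimal list by position of the summit relative to the RNA gene, for independent (blue) and intronic (orange) RNA genes, with Wilson 95% intervals and the share of all pooled regions (6.39%) as a dashed line. Both kinds of gene have their highest shares, 50% to 66.7%, within 100 bp before the start and about 7% past the end.

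Each replicate list showed this placement by itself. With the 1917 regions of highest signal in a replicate (as many as the optimal list holds) counted as strong, replicate 1 had 78 strong regions at RNA genes, of which 40 had the summit within 100 bp before the start (51.3%, 40.4 to 62.1%), against 38 of its 219 others (17.4%). Replicate 2 had 95 strong regions, of which 64 lay there (67.4%, 57.4 to 76.0%), against 34 of its 198 others (17.2%). The median strong summit was 42 bp before the start in replicate 1 and 52 bp before it in replicate 2. The concentration was thus present in both. Many of these regions are common to both lists, and the difference between replicates was not tested.

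The optimal regions at RNA genes were matched between replicates about as often as the whole optimal list. A replicate summit within 100 bp was found for 61.0% of the 313 regions in replicate 1 and for 73.5% in replicate 2, against 52.7% and 56.5% of all pooled regions. Both replicates matched 44.7% of the 313 against 25% of all pooled regions. Of the 92 optimal regions 85 were matched in both (92.4%, against 91.4% of all 1917 optimal regions), 5 lacked a match in replicate 1 and 2 lacked one in replicate 2. Strong in both replicates were 64 of the 92 (69.6%, 59.5 to 78.0%), against 57.4% of the whole optimal list and 3.68% of all pooled regions. Replicate 2 alone ranked a further 18 as strong and replicate 1 alone a further 7, which leaves 3 that were strong in neither.

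**Figure D5:**
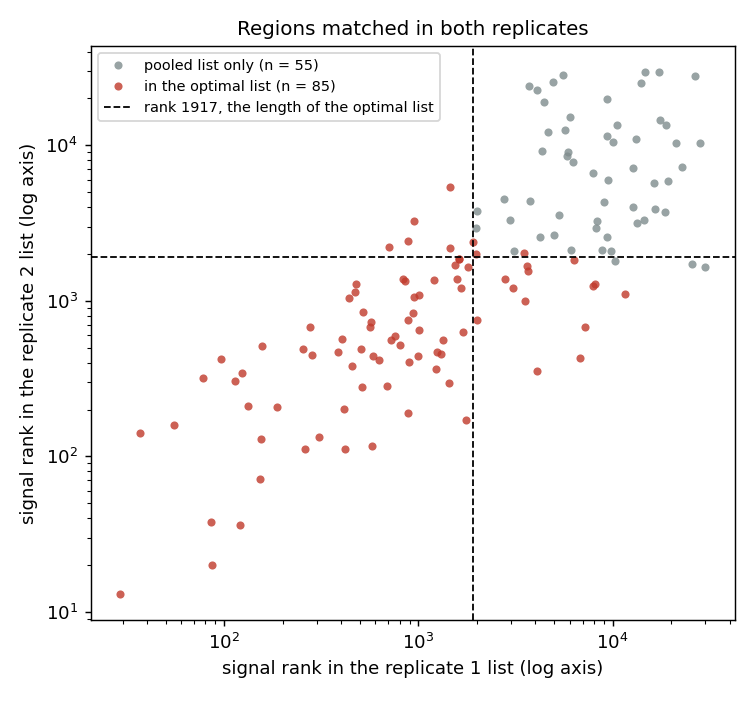
Signal rank in the replicate 1 list against that in the replicate 2 list (log axes, rank 1 the strongest) for the regions at RNA genes matched in both, 85 optimal (red) and 55 others (grey), with dashed lines at rank 1917. Of the optimal regions, 64 lie below both lines; none of the others does.

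The marked letters were more frequent before the RNA genes than before protein-coding genes. TGTCGG and GTACAC had been chosen as frequent before independent snRNA genes, and GGAACCC after sequences had been read. The high shares at the genes used for the choice were therefore fixed by it and are description only. Intronic snRNA genes belong in part to the same sequence families as the independent ones. In the R07E5.16 family 18 of 22 genes were intronic, and in the Y54G9A.8 family 7 of 19. The shares of intronic snRNA genes are therefore not separate from the choice. TGTCGG, on either strand, was found in the 100 bp before 32.4% of 74 independent and 32.7% of 55 intronic snRNA genes, and before 10.7% and 9.55% of snoRNA genes of the same kinds, against 1.87% of 29304 protein-coding transcript starts. On the RNA strand its median position was 47 bp before snRNA starts of both kinds. The median optimal summit was 56 bp before the start at the 7 independent snRNA genes and 14 bp past it at the 3 intronic ones. GGAACCC was found before 17.6% of independent and 32.7% of intronic snRNA genes and before 0.205% of protein-coding starts, at a median of 58 and 60 bp before the RNA. In the printed sequences TGTCGG begins 45 bp before sup-6, 47 bp before T26A8.6, 48 bp before T11F9.15 and 50 bp before smy-2, but 91 bp before sls-2.1. GGAACCC begins 58 bp before sup-6, 63 bp before smy-2 and 69 bp before R07E5.16. GTACAC begins 43 bp before both sls-2.1 and sls-2.2.

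These letters were not limited to RNA genes with signal. Among snRNA genes, TGTCGG stood before 4 of 10 with an optimal region, 12 of 29 with other regions only and 26 of 90 with none. GGAACCC stood before 5 of 10 (23.7 to 76.3%), 9 of 29 (17.3 to 49.2%) and 17 of 90 (12.1 to 28.2%), with overlapping intervals. Among snoRNA genes, TGTCGG stood before 12.2% of 82, 9.70% of 134 and 9.23% of 130, and GGAACCC before 8.54%, 6.72% and 3.85%. GTACAC stood before 3 of 10, 6 of 29 and 34 of 90 snRNA genes (30%, 20.7% and 37.8%). At snoRNA genes GTACAC stood before 8.54%, 6.72% and 3.08%. The third hexamer, ACGCGC, was also most frequent at snRNA genes with no region, with 0 of 10, 4 of 29 and 30 of 90. At snoRNA genes ACGCGC stood before 14.6%, 4.48% and 2.31%. Within 50 bp of the summits, TGTCGG was held by 13% of optimal regions at RNA genes (12 of 92), 5.88% of the other regions there, 3.18% of the whole optimal list and 4.84% of the pooled list. GGAACCC was held by 9.78% (9 of 92), 2.71%, 0.835% and 0.787%. It had first been seen in sequences of genes with an optimal region, so its counts are a description of them. Where TGTCGG stood before the RNA on its own strand, the summit was within 50 bp of it at 10 of 13 optimal regions and 8 of 33 others. Of all summits at RNA genes, 65.2% of the optimal and 17.6% of the others lay within 100 bp before the start. Closeness to TGTCGG cannot be told apart from that placement.

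The start of the B box had its highest share before RNA genes with optimal regions. GGTTCGA stood before 8 of the 92 (8.70%), 5 of the 163 with other regions only (3.07%) and 1 of the 220 with none (0.455%), and before 0.345% of protein-coding starts. Its median position at the 8 genes was 16 bp before the annotated RNA start, and the summit lay within 50 bp of it at 7 of them. Of all optimal summits 65.2% lay within 100 bp before the start, and closeness to GGTTCGA cannot be told apart from that placement. No snRNA gene had it in this stretch. Among snoRNA genes alone the shares were 9.76% (5.03 to 18.1%), 3.73% (1.60 to 8.44%) and 0.769% (0.136 to 4.23%). The intervals of genes with an optimal region and with other regions only overlap. At the summits it was held by 8 of 92 optimal regions (8.70%) and 1 of 221 others (0.452%), against 3.23% of the whole optimal list and 1.54% of the pooled list.

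The A box form, TGGC and AGTGG with 2 bases between, occurred before snoRNA genes and no snRNA gene. It was searched for after being seen in optimal sequences, so its counts are a description of them. It stood before 11 of the 92 RNA genes with an optimal region (12%), 2 of the 163 with other regions only (1.23%), 1 of the 220 with none (0.455%) and 0.0375% of protein-coding starts, both strands counted. At the 11 genes it began 52 to 67 bp before the RNA start on the RNA strand, and the summit was within 50 bp of it at 10. Here too, 65.2% of all optimal summits lay within 100 bp before the start. Of the 11 genes 3 were independent and 8 intronic. Their signals ran from 29.87 at Y71F9AM.7 (inside cogc-3) to 80.12 at T03F7.8 (inside cutl-18), and 8 of the 11 regions were strong in both replicates. T03F7.8 ranked 514 in replicate 1 and 280 in replicate 2, C27H5.9 (inside pdl-1) ranked 278 and 679, and T19B4.8, an independent gene, ranked 384 and 470. The exceptions were C17D12.8, with a signal of 10.77, Y59E1B.14, with 8.818 and its summit 398 bp past the start, and D1054.17, with no region. In T06C12.16, Y43F8C.22 and T24H7.6, printed above, both boxes are present, with 42 to 44 bp from the first base of one to the first base of the other. Y59E1B.14, outside the optimal list, holds both boxes as well, at 43 bp.

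Homeodomain core letters were not found at the optimal summits of RNA genes, but were at some others. TAATTA lay within 50 bp of none of the 92 optimal summits and of 9 of the 221 others (4.07%). It was held by 1.04% of the whole optimal list and 2.39% of the pooled list. The count of 0 allows a share of up to 4.01% (Wilson upper limit), so it is not set apart from either list. GAGAGA, the repeat held by 27.2% of the whole optimal list, was held by 9.78% of optimal regions at RNA genes, near the 9.39% of the pooled list. TATAAA was held by 9.78% of them, against 2.92% of the whole optimal list and 5.33% of the pooled list. The absence of letters in this window says nothing of whether the factor binds.

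Genes of proteins that work with these RNAs were counted as the other part of the pathway. An optimal region lay in the promoter window of 8.39% of 19973 protein-coding genes. Of 9 names on the list of snoRNA-bound core proteins, 6 matched a gene name in the annotation and the rest were not looked up further. Of these 6 genes 5 had such a region: fib-1 (fibrillarin, the methyltransferase, signal 83.65), Y48A6B.3 (68.5), nol-58 (64.36), nol-56 (59.29) and snu-13 (45.17). The region in the window of nol-56 is also one of the 92, since nol-56 hosts the intronic snoRNA gene K07C5.11. The sixth, nola-3, had a best signal of 13.77. Of 11 listed genes of SNAPc and polymerase III initiation factors 9 matched by name, and 2 had an optimal region there, snpc-4 (37.58) and snpc-3.4 (35.05). Of 12 listed Integrator genes, whose complex trims snRNA ends, 11 matched by name and 2 had one, ints-4 (159.6) and ints-5 (35.46). Promoter windows can be shared by neighbouring genes, so a region in one is not assigned to the gene.

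At the edges of the rule, the optimal region farthest from its RNA gene was that at Y37E3.21, 483 bp away with a signal of 44.65. The first optimal region beyond the limit lay 501 bp from R151.11 with a signal of 112. Among optimal regions inside the rule, the one nearest to a tRNA gene was that at ZK994.7, 889 bp away. The number of optimal regions by chromosome was 23 of 75 on I, 22 of 70 on II, 14 of 43 on III, 15 of 59 on IV, 15 of 47 on V and 3 of 19 on X, with every interval overlapping the 29.4% of all 313.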

How the data were processed

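LIN-11 ChIP-seq of 2 biological replicates (1 group) was used as deposited region lists on ce11. Per the notes deposited with the files, candidate regions were called against a control for each replicate and for the pooled reads (30000 regions each), and the optimal list (1917) was thresholded by irreproducible discovery rate. For the antibody reagent, caller, aligner, their versions, read depth and threshold, nothing was stated in the sources read. The deposited columns used were the signal value, the -log10 q-value (a ceiling of 3.54 was reached by 83 of the 313 regions) and the summit offset. Signal values were used only within a list. Lists on ce10 were not used here.

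Genes came from Ensembl release 115 (WBcel235). Optimal regions were identified by identical intervals, and summits within 100 bp were matched between lists. Python 3.11.15, numpy 2.4.6, scipy 1.17.1 and statsmodels 0.14.6 gave Wilson and Newcombe intervals and order-statistic intervals of medians, all at 95%, with no p-values. The rule was tested on simulated data. Motifs were searched as exact letters on both strands, within 50 bp of summits or 100 bp before starts. Named genes were the 6 strongest optimal regions and the strongest other of each class, the edges of the rule and the listed protein genes; genes with the A box letters, the other sls genes and example sequences were chosen after their values were seen. The members and lists were chosen with earlier results of these data known. Listed protein genes not matched by name in the annotation were left out. Intervals cover counting only; regions sharing an RNA gene are not independent.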

Additional observations from a re-analysis of the deposited data

How the results depend on the processing

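Of 105 alternative values for 10 summary results, 84 stayed within the main interval or spread, 21 moved beyond it and none reversed. With 1 region per RNA gene, the optimal share was 36.1%, that of snoRNA genes 38.0%, the median signal 15.6 and the share matched in both replicates 50.6%. With a reach of 1000 bp, the optimal share was 23.7%, that of independent genes 25.4%, that of snoRNA genes 25.2% and the share of RNA genes reached 25.3%. With 250 bp these were 35.6% for the optimal share, 41.1% for independent genes and 38.0% for snoRNA genes, with a median signal of 15.57 and 51.1% matched in both. With the stronger 50% of the optimal list, the shares were 18.5% for all, 21.1% independent, 16.1% intronic, 19.0% snoRNA and 12.8% of RNA genes reached, lower by construction. Matching within 200 bp gave 56.2% and within 50 bp 33.9% in both replicates. Leaving out replicate 1 or 2 gave 16.2 to 20.6% of RNA genes reached and an optimal share of 26.3 to 32.4%. The lead of independent over intronic genes was then 9.05 to 11.8 points, and without replicate 1 its interval excluded 0. No paired analysis was possible because the study has 1 group. Read depth is unknown, so a region missing from a list is not shown to lack signal.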
